A study of Mus musculus with 28 samples.

Results

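A set of 10 genes of the growth factor and serum response were examined: Egr1, Egr2, Egr3, Klf2, Klf4, Klf6, Nr4a1, Ier2, Srf and Myc. They were chosen by name and make up 10 of the 23951 gene symbols in the expression tables. All 10 were among the 11728 genes with a mean FPKM (fragments per kilobase of transcript per M mapped fragments) of at least 1, the minimum for testing. The cells were NIH/3T3 Tet-On 3G, an immortalised mouse fibroblast line, grown throughout in medium with 10% fetal bovine serum, so every value describes cells in steady serum and none a starved or freshly stimulated culture. RNA came from 2 control clones that carry the constructs GFP-Luciferase/OFP-Luciferase (genotype labelled wild type) and from 3 clones that carry OFP-H3.3A/GFP-H3.3B (labelled H3.3 Knockdown). Each RNA library is 1 clone, so a difference between clones and a difference between genotypes rest on the same 5 libraries. RBBP4 and MTA1, which belong to the nucleosome remodelling and deacetylase complex, NuRD, were mapped by ChIP-seq in 1 library each of cells carrying the same 2 pairs of constructs. Unmodified, wild-type cells gave 1 library each of RBBP4, MTA1, CHD4, HDAC1, HDAC2, MBD2/3, H3K4me3, H3K9ac and H3K27ac. The histone variant H3.3 was mapped through its HA tag in 2 replicates of cells carrying an HA/FLAG-H3.3 construct, held in aphidicolin and 2 mg/ml doxycycline, the dose as the labels give it. The treatment entry of all 5 RNA libraries also names that H3.3 construct line and doxycycline at the same labelled dose, while their transduction entry names only the constructs given above; the ChIP libraries of the control, knockdown and unmodified cells carry no treatment. In a sequential ChIP of the same construct line with doxycycline, chromatin was taken first through FLAG and then with RBBP4 antibody.

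Serum growth factors act on the nucleus in part through the ERK cascade. Serum response factor, SRF, binds CArG boxes in promoters, and either a ternary complex factor of the ETS family or a myocardin-related factor joins it there. The genes it switches on within minutes, without new protein synthesis, are the immediate early genes, and many of them encode transcription factors: the EGR and KLF zinc finger proteins, the orphan nuclear receptor NR4A1 and, through further inputs, MYC. CREB, which binds the sequence TGACGTCA and its shorter form TGACG, is a further route to several of them. H3.3 is deposited outside of DNA replication and is known for its enrichment at active promoters and over transcribed genes, and NuRD joins a CHD remodelling enzyme to histone deacetylases.

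The promoters of Srf, Egr2 and Nr4a1 are shown because they carry the motifs through which this class of genes is known to be switched on. RefSeq promoter sequences (build GRCm38.p6, 250 bases before to 50 bases after the annotated start) were matched for 6 of the 10 genes: Egr2, Klf2, Klf4, Klf6, Nr4a1 and Srf. In the Srf promoter (chr17:46556113-46556412, minus strand) and in 1 of the Egr2 promoters (chr10:67537619-67537918, plus strand), capitals mark the CArG boxes. In the Nr4a1 promoter (chr15:101266596-101266895, plus strand), capitals mark the CREB short sites TGACG, all 4 of them on the opposite strand and so printed as CGTCA.
Srf: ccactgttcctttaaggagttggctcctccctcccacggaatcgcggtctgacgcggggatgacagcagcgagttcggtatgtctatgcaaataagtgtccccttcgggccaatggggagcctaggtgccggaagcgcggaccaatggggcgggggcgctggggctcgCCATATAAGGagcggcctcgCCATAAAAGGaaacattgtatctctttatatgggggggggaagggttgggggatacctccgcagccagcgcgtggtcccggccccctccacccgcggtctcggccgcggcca
Egr2: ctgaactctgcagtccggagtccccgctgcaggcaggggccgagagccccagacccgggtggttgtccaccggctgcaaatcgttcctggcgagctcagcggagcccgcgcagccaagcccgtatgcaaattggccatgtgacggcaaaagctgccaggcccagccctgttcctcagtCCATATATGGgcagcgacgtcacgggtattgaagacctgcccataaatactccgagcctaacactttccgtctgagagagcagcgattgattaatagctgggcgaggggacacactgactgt
Nr4a1: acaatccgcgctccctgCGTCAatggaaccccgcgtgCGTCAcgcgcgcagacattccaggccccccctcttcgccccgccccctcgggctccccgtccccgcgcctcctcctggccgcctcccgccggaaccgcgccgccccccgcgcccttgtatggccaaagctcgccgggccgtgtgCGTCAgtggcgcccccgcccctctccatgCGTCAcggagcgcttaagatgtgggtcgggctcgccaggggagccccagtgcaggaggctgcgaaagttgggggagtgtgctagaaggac
Both CArG boxes of Srf lie close to the start site, their first bases 82 and 62 bases upstream. The box of this Egr2 promoter begins 72 bases upstream. A CArG box was present in 2 of the 6 genes and in 1.81% of the 27025 mouse genes in the RefSeq promoter table, counted on both strands and over every promoter of a gene. Those genes had 32851 promoters in all. Egr2 had several, and so more chances of a site than a gene with a single promoter. The short sites of Nr4a1 begin 233, 213, 69 and 40 bases upstream, and 5 of the 6 genes (all but Klf6) held at least 1 such site against 23.0% of all genes. No member held the full TGACGTCA, which 2.03% of genes held. The ETS core CCGGAA was found in 3 of 6 (Egr2, Nr4a1 and Srf) against 16.7%, and the GC box GGGCGG, the kind of site that SP and KLF proteins bind, in 6 of 6 against 38.2%. In Egr2 both lay in promoters other than the one shown. The EGR site (GCGTGGGCG or GCGGGGGCG, which can overlap a GC box) was found in 4 of 6 (Klf2, Klf4, Nr4a1 and Srf) against 3.93%. The shorter KLF-type site CACCC was found in 3 of 6 against 59.8%, and TATAAA in 1 of 6 (Srf) against 15.7%. These promoters are rich in G and C: GC content was 63.3% in Srf, 72.3% in Nr4a1 and 74.3% in Klf4, against a median of 52.7% over all promoters. It was 60% in the Egr2 promoter shown, and ran from 56% to 72% over the promoters of Egr2. The part of base composition in the motif counts was not tested.

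The RNA libraries held an estimated 18.2 to 26.5 M fragments. The knockdown was incomplete and unequal: H3f3a, one of the 2 mouse genes for H3.3, had an FPKM of 128.3 and 143.5 in the control clones and of 71.8, 35.6 and 5.05 in knockdown clones 1 to 3, and H3f3b had 249.4 and 237.1 against 144.4, 104.3 and 51.7. Knockdown clone 1, the least depleted, stood apart from the other 4 libraries on the first principal component (72.6 against −40.1 to 0.59, 39.1% of the variance), so the members and the gene lists are also given without it. Of 10 fibroblast markers 10 were above the minimum, among them S100a4 and Vim at mean FPKM of 2533 and 2022, with a summed FPKM of 7171 and 8102 in control clones and of 9637 to 11238 in knockdown clones. Blood markers summed to 1.17 and 3.24 in control clones and to 1.08 to 2.55 in knockdown clones, epithelial markers to 2.39 and 2.67 against 0.703 to 6.55, and endothelial markers to 4.98 and 8.71 against 1.47 to 11.0. Cd3e and Epcam were listed at 0 in every clone. Of these markers Cdh5, an endothelial cadherin, differed most clearly, at 3.78 and 6.89 against 0.190, 0.170 and 0.495 (limma adjusted p = 0.280), and its part in any result below was not tested. Tek, the other endothelial marker tested, had the opposite sign, at 0.902 and 1.34 against 10.5, 3.14 and 0.586 (log2 difference 1.00, limma adjusted p = 0.650). Hba-a1 (log2 difference −0.25) and Krt14 (0.08) were the only blood and epithelial markers above the minimum.

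Per unit of transcript length, Egr1 was the most abundant of the 10 genes, with a mean FPKM of 81.6 over the 5 clones, at the 91.4th percentile of genes above the minimum. Myc followed at 52.2, Ier2 at 39.6, Klf4 at 28.6, Srf at 24.5, Klf6 at 13.6 and Nr4a1 at 11.2. Klf2 at 4.07, Egr3 at 2.92 and Egr2 at 2.33 were low, Egr2 at the 9.67th percentile. Of the 9 neighbouring pairs in this order only Srf and Klf6 did not overlap in their ranges over clones. Within a clone, the higher gene of the pair exceeded the next in 5 of 5 clones for Egr1 over Myc, Ier2 over Klf4 and Srf over Klf6, and in 3 or 4 of 5 for the other 6 pairs.

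**Figure D1:**
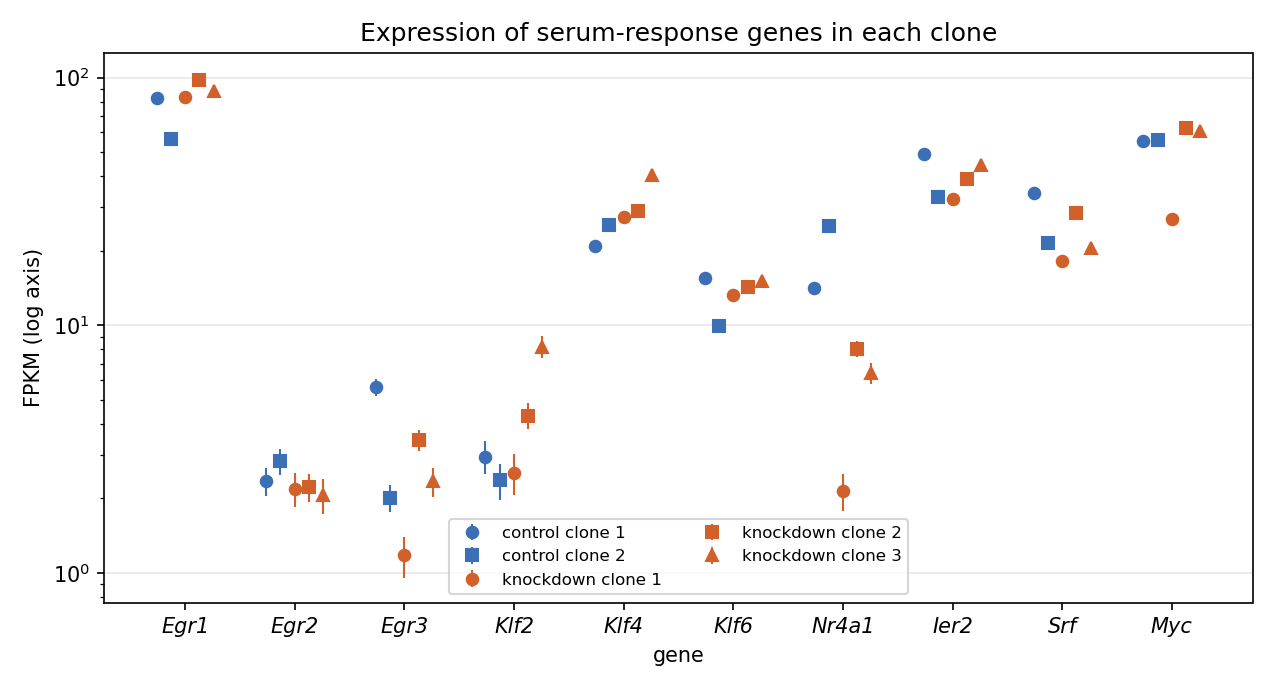
FPKM (log axis) of the 10 serum-response genes in each of 2 control clones (blue) and 3 knockdown clones (orange); bars are the deposited confidence bounds of each FPKM and cover counting error only. Nr4a1 is the gene with the widest gap between the groups, at 14.2 and 25.2 in control clones and 2.15 to 8.02 in knockdown clones.

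Of the 10 genes 0 passed the test between genotypes, and Nr4a1, at a lower level in all 3 knockdown clones, showed the difference of largest size. The test was limma on log2(FPKM + 1) over all 11728 genes with Benjamini-Hochberg adjustment, and its p-values measure only the spread between these clones. It called 1 gene higher and 3 lower in knockdown clones (0.00853% and 0.0256% of genes tested), and all 4 were short RNA genes, judged by name. At an unadjusted p under 0.05 it gave 0 of the 10 genes higher and 1 lower, against 3.5% and 6.31% of all genes. All 3 knockdown clones lay above both controls for 2 of the 10 (Egr1 and Klf4) and below both for 2 (Egr2 and Nr4a1), against 11.4% and 21.2% of all genes. The log2 difference was positive for 4 and negative for 6, with a median of −0.13, beside −0.10 over all genes. Without knockdown clone 1 it was positive for 6 and negative for 4 (median 0.09, beside −0.08 over all genes), with Ier2 and Myc turned. For a single gene the exact two-sided permutation test over 2 and 3 clones cannot go below p = 0.2. In bulk RNA, fewer expressing cells and less RNA per cell cannot be told apart.

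**Figure D2:**
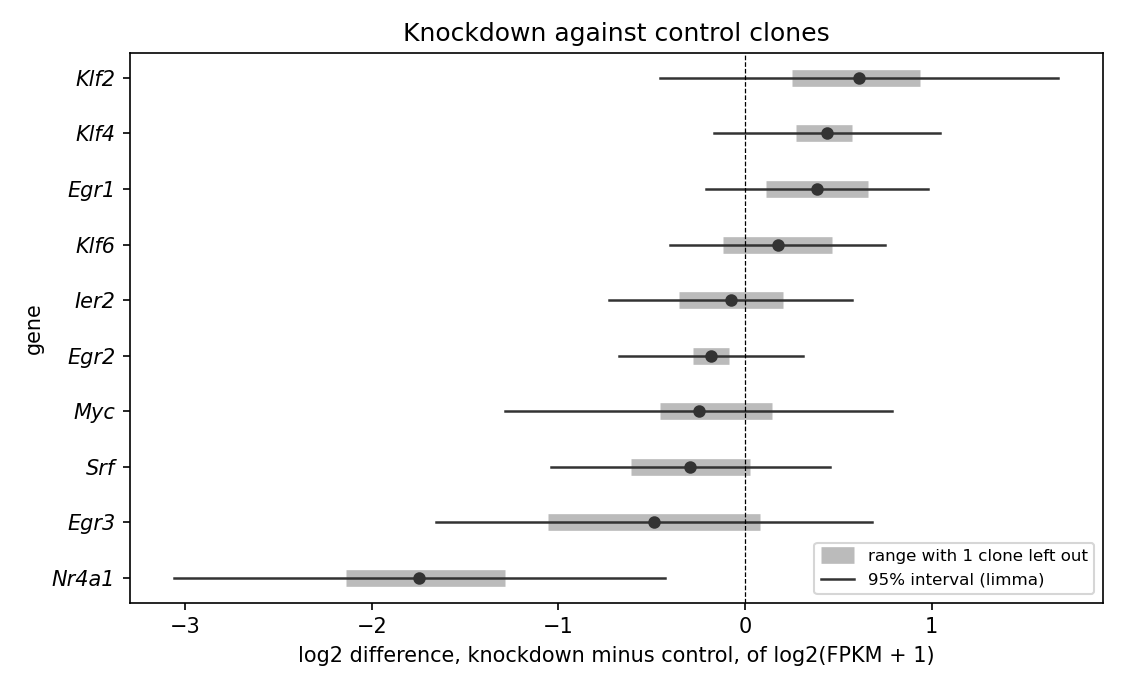
Difference between knockdown and control clones on the log2(FPKM + 1) scale for each gene, with the limma 95% interval (line) and the range over the fits that leave out 1 clone (grey bar). The interval of Nr4a1, −3.06 to −0.43, is the only one that does not include 0, and the grey bars of Egr3, Klf6, Ier2, Srf and Myc cross 0.

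Srf encodes the factor through which the CArG-box genes respond, and is itself such a gene. Its FPKM was 34.1 and 21.6 in the control clones against 18.2, 28.4 and 20.5 in knockdown clones 1 to 3. The groups overlapped, the second knockdown clone lying between the controls (difference −0.29 in log2 units with an SE of 0.30, limma adjusted p = 0.700). The sign rested on control clone 1: without it the difference was 0.03, and without knockdown clone 1 it was −0.16.

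The EGR proteins are zinc finger activators that bind GC-rich sites. Egr1, the most abundant, stood at 82.7 and 56.3 FPKM in control clones against 83.3, 97.7 and 88.1 in knockdown clones. All 3 knockdown clones lay above both controls, knockdown clone 1 above control clone 1 by less than the counting error of either value (difference 0.39 in log2 units with an SE of 0.24, limma adjusted p = 0.568). Without control clone 1 the difference was 0.66, without control clone 2 it was 0.11, and without knockdown clone 1 it was 0.44. Egr2, known from hindbrain and myelinating Schwann cells, had 2.35 and 2.82 in control clones against 2.18, 2.22 and 2.06 in knockdown clones, all 3 lower but by a small margin (difference −0.18 in log2 units with an SE of 0.20, limma adjusted p = 0.714; −0.19 without knockdown clone 1). Egr3 had 5.63 and 2.01 in control clones against 1.18, 3.45 and 2.34 in knockdown clones. The 2 control clones spanned nearly the whole range of Egr3, and the difference of −0.49 (SE 0.46, limma adjusted p = 0.689) became 0.08 without control clone 1 and −0.21 without knockdown clone 1.

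The KLF factors bind CACCC and GC-box sites. Klf4, one of the reprogramming factors and a regulator of growth arrest, stood at 21.0 and 25.4 FPKM in control clones against 27.4, 28.9 and 40.2 in knockdown clones. All 3 knockdown clones were higher and clone 3 was highest (difference 0.44 in log2 units with an SE of 0.24, limma adjusted p = 0.555). The difference of Klf4 was 0.27 without clone 3 and 0.54 without clone 1. Klf2, best known from endothelial cells and lymphocytes, had 2.95 and 2.37 in control clones against 2.54, 4.32 and 8.20 in knockdown clones. Clone 1 lay between the controls of Klf2 and the other 2 knockdown clones above both (difference 0.61 in log2 units with an SE of 0.42, limma adjusted p = 0.604; 0.94 without clone 1, adjusted p = 0.570, and 0.25 without clone 3). Klf6 had 15.4 and 9.96 in control clones against 13.2, 14.2 and 15.1 in knockdown clones, which all lay between the controls (difference 0.18 in log2 units with an SE of 0.23, limma adjusted p = 0.763; −0.12 without control clone 2 and 0.22 without knockdown clone 1).

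Nr4a1 encodes an orphan nuclear receptor induced by many stimuli besides serum. Its FPKM was 14.2 and 25.2 in the control clones against 2.15, 8.02 and 6.42 in knockdown clones, with means of 19.7 and 5.53. Every knockdown clone was below both controls, and clone 1 was lowest (difference −1.75 in log2 units with an SE of 0.52, 95% interval −3.06 to −0.43, unadjusted p = 0.0183, limma adjusted p = 0.462). Without knockdown clone 1 the difference was −1.29 (adjusted p = 0.564), and over all alternatives the adjusted p of Nr4a1 ran from 0.188 to 0.955. Its paralog Nr4a2 had 2.77 and 3.54 in control clones against 0.407, 1.68 and 2.31 in knockdown clones, again without overlap (difference −0.83 in log2 units with an SE of 0.41, limma adjusted p = 0.527).

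Ier2, a small nuclear protein gene of the immediate early class, stood at 49.2 and 33.05 FPKM in control clones against 32.3, 38.8 and 44.5 in knockdown clones, with the groups overlapping (difference −0.08 in log2 units with an SE of 0.26, limma adjusted p = 0.916; 0.04 without knockdown clone 1). Myc, the bHLH factor that drives growth and ribosome synthesis, had 55.4 and 55.9 in control clones against 26.7, 62.3 and 60.8 in knockdown clones. The low value of Myc was that of clone 1 alone, while clones 2 and 3 lay above both controls (difference −0.25 in log2 units with an SE of 0.41, limma adjusted p = 0.818; 0.14 without clone 1). Clone 1 was also the lowest of the 5 clones for Egr3, Nr4a1, Ier2 and Srf.

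The genes upstream and downstream of these 10 were read from lists, and 0 genes of any list were called. Of 10 receptors for serum growth factors and lipids, 7 were higher and 3 lower (median log2 difference 0.17; 5 and 5 without knockdown clone 1, median 0.005), with Pdgfrb, a receptor for platelet-derived growth factor, at 20.3 and 26.8 in control clones against 53.8, 35.5 and 50.2 in knockdown clones (difference 0.94 in log2 units with an SE of 0.26, limma adjusted p = 0.451). S1pr3 had a log2 difference of 0.73, while Pdgfra (0.24) and Fgfr1 (−0.10), the 2 of highest FPKM, overlapped between groups and stood at −0.53 and −0.50 without knockdown clone 1. Among the SRF cofactors 5 of 6 were tested, 4 of them higher (median 0.08; 4 and 0.24 without knockdown clone 1). Mkl1, the gene for a myocardin-related factor, had 25.3 and 34.5 against 40.1, 41.1 and 39.2 (log2 difference 0.43, limma adjusted p = 0.520), and the ETS factor genes Elk1 and Elk3 had differences of 0.31 and 0.07.

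Of 17 SRF targets of the cytoskeleton, 11 were higher and 6 lower (median 0.17). Without knockdown clone 1 the counts were 12 and 5 (median 0.23). An unadjusted limma p under 0.05 was reached by 3 of the 17, beside 1150 of all 11728 genes. Cnn1, for calponin, had 13.8 and 8.82 in control clones against 20.7, 22.8 and 23.3 in knockdown clones (difference 0.95 in log2 units with an SE of 0.23, limma adjusted p = 0.442), and Tpm2, for a tropomyosin, had a difference of 0.84 (adjusted p = 0.442). The actin genes Actb and Actg1, far more abundant, had −0.03 (0.23 without knockdown clone 1) and −0.37. The fibroblast markers also leaned upward, with a median of 0.74, or 0.70 without knockdown clone 1 (Sparc 0.97, S100a4 0.95, Vim −0.02). Above both controls in all 3 knockdown clones were 6 of the 10 markers, and below both 1, beside 11.4% and 21.2% of all genes. The part of this upward shift in the receptor and cytoskeletal values was not tested.

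Of 24 other early response genes, 10 were higher and 14 lower (median −0.15; 11 and 13 without knockdown clone 1, median −0.04). Pim1, a serum- and cytokine-induced kinase gene, had 10.4 and 12.0 in control clones against 3.68, 5.12 and 4.79 in knockdown clones (difference −1.15 in log2 units with an SE of 0.20, limma adjusted p = 0.401), and Ier3 had a difference of −1.06 (adjusted p = 0.493). Sgk1 (−0.47, but 0.14 without knockdown clone 1) and Cebpb (−0.13), the 2 of highest FPKM, overlapped between groups. Among the EGR co-repressors and the remaining EGR and NR4A genes 3 of 5 were tested, 1 higher and 2 lower with and without knockdown clone 1, and Nab1, a co-repressor that binds EGR proteins, had 25.2 and 26.9 against 13.0, 22.0 and 11.2 (difference −0.78 in log2 units with an SE of 0.31, limma adjusted p = 0.512), while its relative Nab2 had 0.24. Of 14 other KLF genes 8 were tested, 4 in each direction (3 higher and 5 lower without knockdown clone 1). Klf5 had 23.0 and 20.5 in control clones against 8.96, 14.0 and 10.7 in knockdown clones (difference −0.92 in log2 units with an SE of 0.23, limma adjusted p = 0.442), Klf13 had −0.55, Klf3 had 0.46 and Klf9 had 0.04 (−0.09 without knockdown clone 1).

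Of 10 partners and paralogs of MYC 8 were tested, 6 higher and 2 lower (median 0.07, but 2 higher and 6 lower without knockdown clone 1, median −0.13; Max 0.26, Mxd4 0.31, which turned to −0.30 without that clone, and Mlx −0.28). Of 14 MYC targets, 13 were lower and 1 higher (median −0.31, beside −0.10 over all genes, of which 59.9% were lower). That lean was weaker without knockdown clone 1, where 8 of the 14 were lower and 6 higher (median −0.04). Over all genes 58.6% were then lower, with a median of −0.08. The lists were refitted without no other clone, so the part of the other clones, controls included, in this lean was not tested. Odc1, the first enzyme of polyamine synthesis, had 216.6 and 136.7 in control clones against 53.6, 111.1 and 101.1 in knockdown clones (difference −1.02 in log2 units with an SE of 0.40, limma adjusted p = 0.506), and the nucleolar gene Npm1 was higher, at 0.37. Without knockdown clone 1 the difference of Odc1 was −0.69 and that of Ldha was −0.29, from −0.56.

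In unmodified cells all 10 genes carried H3K4me3, the mark of active promoters, and its domains were wide. The loci not placed elsewhere in the text are, in mm9, Egr2 chr10:67000617-67004936, Egr3 chr14:70477252-70482420, Klf2 chr8:74842961-74845553 and Klf6 chr13:5860735-5869639 on the plus strand and Ier2 chr8:87185230-87186751 on the minus strand. At least 1 deposited H3K4me3 peak lay within 2 kb of the locus for 10 of 10 genes (93.7% of expressed genes), H3K9ac for 10 of 10 (88.4%) and H3K27ac for 9 of 10, all but Egr2 (70.5%). Among expressed loci of at most 10 kb the 3 shares were 86.4%, 80.8% and 63.3%. The widest H3K4me3 peak measured 6959 bp at Myc, 6530 bp at Ier2, 5820 bp at Nr4a1, 5763 bp at Klf4 and 5580 bp at Egr1, then 5164 bp at Egr3 and 4988 bp at Srf. These 7 were at or above the 90th percentile of widest peaks over 10988 expressed genes with a peak. Egr2 (3363 bp), Klf6 (3308 bp) and Klf2 (2370 bp) were nearer to the median of 2873 bp, and the median of the 10 genes was 5372 bp. For H3K9ac 4 of the 10 reached the 90th percentile (Srf 4976 bp, Myc 3836 bp, Egr1 3701 bp, Nr4a1 3499 bp) and for H3K27ac 3 (Nr4a1 849 bp, Ier2 779 bp, Egr3 665 bp). At or above the median width of expressed genes were 9 of 10 for H3K9ac and 6 of the 9 with a peak for H3K27ac. Klf2 was narrow for H3K9ac (933 bp, median 1845 bp) and Egr1 for H3K27ac (188 bp, median 360 bp). The authors' H3K4me3 score did not separate these genes, since 9 of the 10 and 85.4% of expressed genes with a peak had a score of at least 3100. There is 1 library per mark, so these widths have no replicate error.

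**Figure D3:**
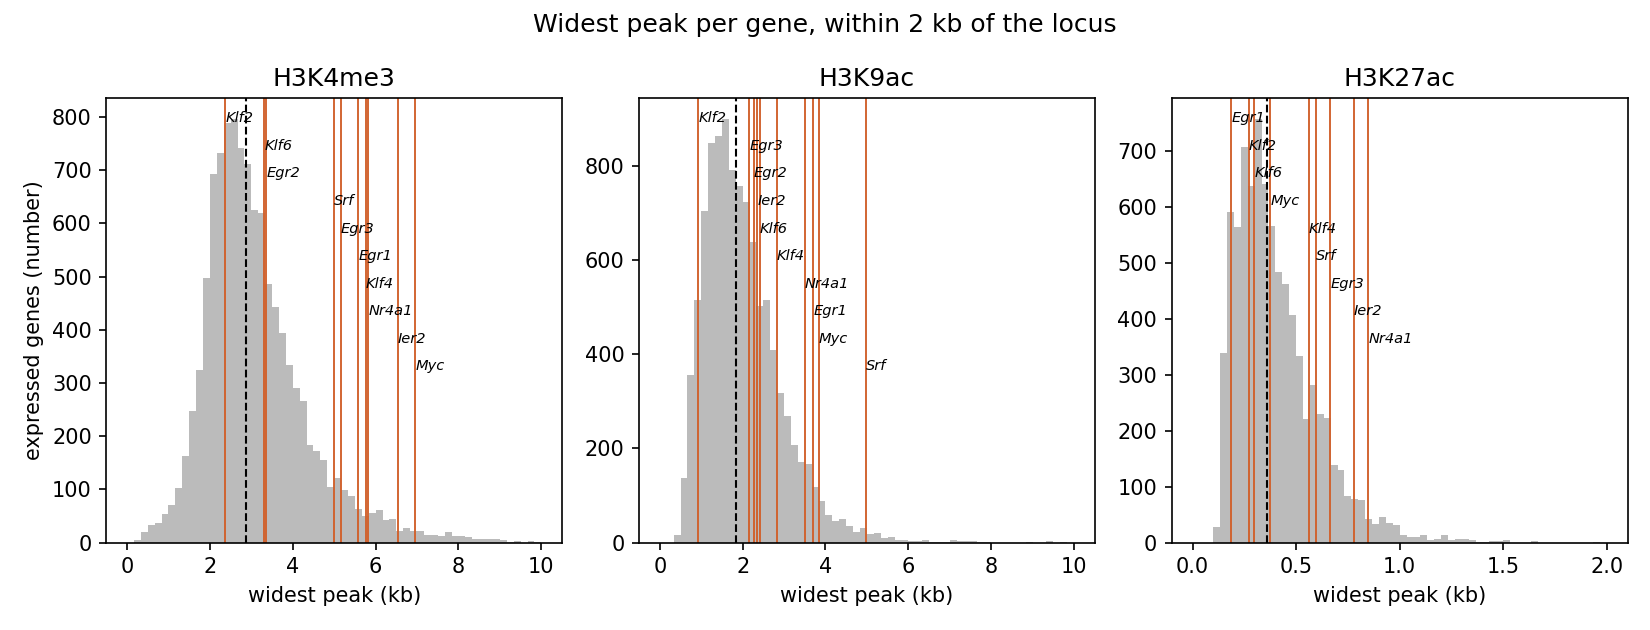
Width of the widest peak within 2 kb of each expressed gene (grey, number of genes; dashed line, median) for 3 histone marks, with the serum-response genes as orange lines. For H3K4me3, 7 of the 10 genes lie between 4988 and 6959 bp, to the right of a median of 2873 bp; axes end at 10 kb or 2 kb.

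The subunits of NuRD and H3.3 were read in the same windows from a deposited table of 82893 regions, as RPKM (reads per kilobase per M mapped reads). A region covered in part by RBBP4 peaks lay within 2 kb of 10 of 10 genes (82.4% of expressed genes), by H3.3 peaks of replicates 1 and 2 of 10 and 10 of 10 (82.6% and 88%), and by HDAC2 peaks of 7 of 10 (55.5%). For HDAC1 the count was 5 of 10 (34.6%: Klf4, Klf6, Ier2, Srf and Myc), for CHD4 3 (13.2%: Egr3, Klf4 and Srf), for MTA1 2 (16.3%: Nr4a1 and Myc) and for MBD2/3 1 (16.1%: Egr1). At least 3 of the 6 subunits were found at 7 of 10 genes (39.7% of expressed genes) and at least 4 at 3 of 10 (18.2%), namely Klf4, Srf and Myc. Among expressed loci of at most 10 kb, the size class of all 10 genes, these 2 shares were 35.9% and 16.4%. The single shares there were 72.2% for RBBP4, 73.9% and 81.3% for H3.3 and 48.4% for HDAC2. They were 32.7% for HDAC1, 12.6% for CHD4, 14.2% for MTA1 and 14.6% for MBD2/3. The thinner calls rest on small parts of regions: with coverage of at least 0.5 required, HDAC1, MTA1 and MBD2/3 were left at 0 genes. The libraries held 6.62 to 24.1 M reads, and the median region 7 to 46.

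RBBP4, the histone-binding WD40 subunit, was highest at Myc and Klf4. Pooled over the regions of a gene, RBBP4 was 5.42 RPKM at Myc (95% Poisson interval 4.87 to 6.01, counting error only) and 4.94 at Klf4 (4.39 to 5.54), the 97.9th and 96.4th percentiles of 11023 expressed genes. Klf6 was lowest at 1.75 (1.43 to 2.12), and 9 of 10 genes were above the expressed median of 2.21. The same 2 genes led for HDAC2 (3.75 at Myc and 3.67 at Klf4) and for MTA1 (2.01 and 1.66). Across the other subunits the median of the 10 genes was 1.53 for CHD4, 1.80 for HDAC1, 2.31 for HDAC2, 1.45 for MBD2/3 and 1.34 for MTA1, beside 1.15, 1.45, 1.80, 1.15 and 1.13 over expressed genes. Pooled in this way Klf6 was below the expressed median for all 6 subunits and all 3 marks, but its pool includes a long region over the gene end. Each region was therefore also counted, whole, on the side of the locus end nearer to its centre. On the start side alone Klf6 had 3.38 RPKM of HDAC1, 2.13 of CHD4, 4.25 of H3K9ac and 18.0 of H3K4me3. Its end side had 0.656, 0.766, 0.424 and 0.418. RBBP4 at Klf6 was 2.59 on the start side against 1.54 on the end side, HDAC2 2.27 against 0.917 and MTA1 1.57 against 0.877. H3K27ac was 2.20 against 0.729, and MBD2/3 was 0.852, on 9 reads, against 0.763. No start-side median of expressed genes is given beside these values. Pooled H3K4me3 ran from 3.96 RPKM at Klf6 to 16.9 at Nr4a1, which had regions on the start side only, so these 2 values cover different parts of a gene. Pooled H3K9ac and H3K27ac were highest at Nr4a1 (5.32 and 2.79). Neither table holds an input column, so open chromatin and bound protein cannot be told apart in these levels.

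**Figure D4:**
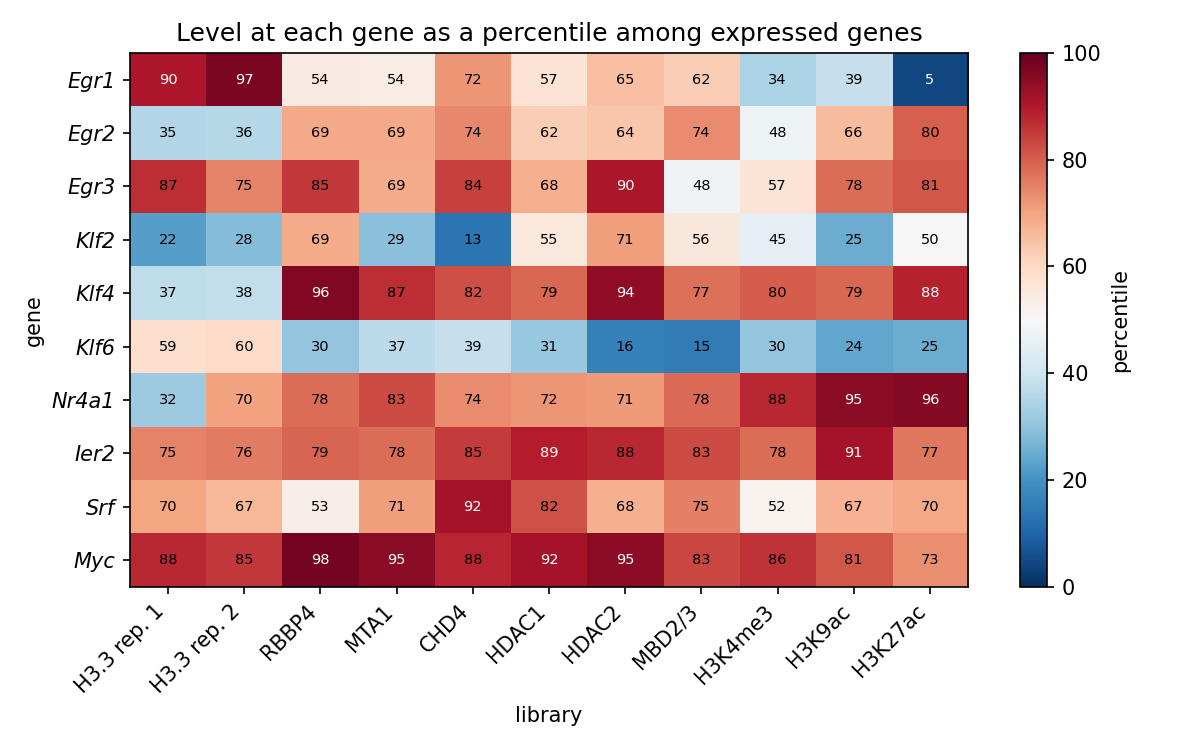
Pooled RPKM of each gene in each library (columns), printed and coloured as a percentile among 11023 expressed genes (0 to 100). Myc is above the 70th percentile in all 11 libraries, Klf6, whose pool includes a long region over its end, lies below the 40th in the 6 subunit and 3 mark libraries, and Egr1 is at the 90th and 97th for H3.3.

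The order of the 10 genes by H3.3, from the aphidicolin-held cells, was not that by RBBP4, from unmodified cells. Egr1 had the highest pooled H3.3 in both replicates, 5.91 and 7.25 RPKM, and Klf2 the lowest, 2.19 and 3.02. Myc, highest for RBBP4, came next after Egr1 for H3.3 (5.51 and 5.23). Klf2 was also the lowest of the 10 for MTA1 (0.946) and CHD4 (0.788). At Egr1 (mm9, chr18:35020861-35024610, plus strand) the signal lay over the gene body and beyond it: a region from 850 to 7362 bp after the gene start, annotated by the authors as downstream, held 7.06 (6.52 to 7.64) and 9.05 (8.52 to 9.60) RPKM of H3.3. The region over the start of Egr1, from −99 to 455 bp in the 5′UTR class, held 1.06 (0.46 to 2.097) and 1.08 (0.54 to 1.93). RBBP4 in these 2 regions was 1.84 (1.51 to 2.23) and 2.41 (1.24 to 4.21), with overlapping intervals. The region before the start of Egr1, from −2374 to −365 bp, held 3.82 (2.97 to 4.83) of RBBP4, above the downstream region but within the interval of the start region, and H3.3 there was 3.52 and 3.14, with 79.5% and 96.3% of it covered by H3.3 peaks. The start region of Egr1 was also the only one near the 10 genes with an MBD2/3 peak, which covered 45.7% of it on 16 reads.

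The sides of a locus are those of whole regions, each placed at the locus end nearer to its centre. A region can thus cross the midpoint, as that from 850 to 7362 bp on the end side of Egr1 does. For the 8 genes with regions on both sides, RBBP4 was higher on the start side in 8 of 8 (88.4% of 5152 expressed genes) and H3K4me3 in 8 of 8 (92.5%). H3.3 was higher on the end side in 3 of 8 in replicate 1 (32.6% of expressed genes) and in 6 of 8 in replicate 2 (50.3%). Egr1, Klf2 and Klf6 were higher on the end side in both replicates, but their counting intervals were apart in both only for Egr1 and overlapped for Klf6 in both (3.50 and 3.57 RPKM in replicate 1). Ier2 had its higher side at opposite ends in the 2 replicates, with intervals apart in both: it had 5.36 RPKM at the start and 2.78 at the end in replicate 1, and 3.59 and 6.48 in replicate 2. Klf4 and Egr2 were also higher on the end side only in replicate 2, where the 2 values of Klf4, 3.28 and 3.39, and those of Egr2, 2.98 and 4.22, had overlapping intervals. Over its end side Srf had only 11 reads in replicate 1.

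Klf4 (mm9, chr4:55540009-55545347, minus strand) held the densest RBBP4 region of the set. The region chr4:55542761-55545149, from 198 to 2587 bp into the gene and annotated as intronic, had 7.82 RPKM of RBBP4 (6.68 to 9.09), was wholly covered by RBBP4 peaks, and had 27.8 RPKM of H3K4me3. H3.3 over the same region was 2.01 and 2.097 RPKM and no H3.3 peak covered it. At Myc (mm9, chr15:61816896-61821916, plus strand) the region chr15:61815573-61819926, from −1323 to 3031 bp, had 7.02 RPKM of RBBP4 (6.22 to 7.90) with 25.7 of H3K4me3, and there H3.3 was 6.99 and 6.50 RPKM. The 2 genes with the most RBBP4 thus differed in H3.3 over that region in both replicates, beyond the counting intervals (1.55 to 2.56 and 1.69 to 2.57 at Klf4, 6.33 to 7.70 and 5.96 to 7.09 at Myc).

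Nr4a1 (mm9, chr15:101097277-101105225, plus strand) had its RBBP4 over the start: the region chr15:101096381-101098391, from −896 to 1115 bp in the 5′UTR class, held 3.92 RPKM (3.06 to 4.95), 2.75 and 4.41 of H3.3 and 16.3 of H3K4me3. In the intronic region from 1642 to 2431 bp RBBP4 was 1.27 (0.58 to 2.41) while H3K4me3 was 18.4. A peak of MTA1 covered 18.3% of that second region on 12 reads. At Srf (mm9, chr17:46683788-46693111, minus strand), whose window also holds Cul9 and Mir6976, H3.3 was highest upstream, with 8.42 (7.21 to 9.76) and 5.68 (4.83 to 6.64) RPKM from −1605 to −81 bp.

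**Figure D5:**
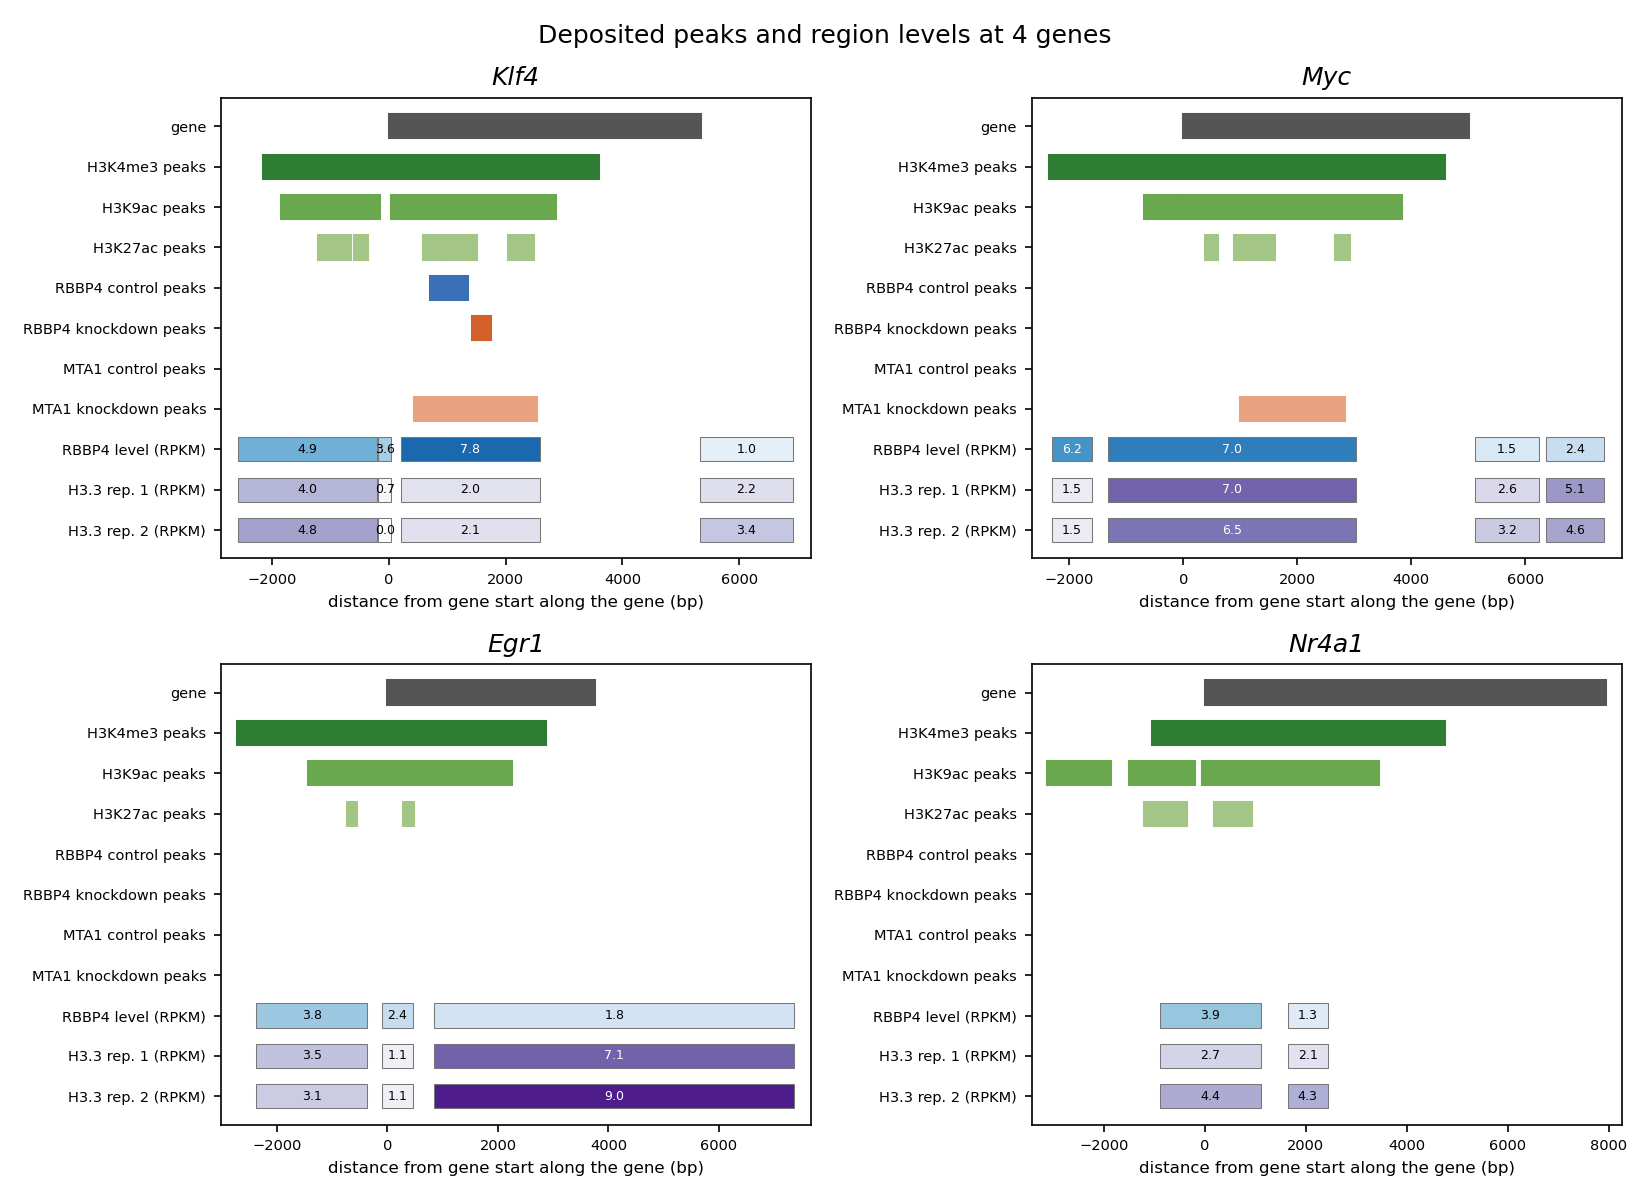
Deposited peaks (solid bars) and table regions (boxes with their RPKM) along Klf4, Myc, Egr1 and Nr4a1, as distance from the gene start in bp. At Klf4 the RBBP4 control and knockdown peaks lie side by side within the RBBP4-rich region and inside the MTA1 knockdown peak; Egr1 and Nr4a1 have no peak in the control and knockdown lists.

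In the transduced cells, few of the 10 genes had a called peak of RBBP4 or MTA1. RBBP4 peaks lay within 2 kb of 3 genes in the control list (Egr3, Klf2 and Klf4; 16.7% of expressed genes) and of 1 in the knockdown list (Klf4; 17.4%). MTA1 peaks lay near 0 genes in the control list (5.68%) and near 2 in the knockdown list (Klf4 and Myc; 4.77%). Long loci gather more peaks, and among the 3540 expressed loci of at most 10 kb, the size class of all 10 genes, the shares were 10.9% and 11.3% for RBBP4 and 2.37% and 3.76% for MTA1. None of the 6 peaks of the sequential ChIP was near a member (0.0682% of expressed genes).

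At Klf4 the RBBP4 control peak (chr4:55544002-55544641, 706 to 1346 bp from the start) had a score of 220.9, and the knockdown peak (chr4:55543600-55543928, 1419 to 1748 bp) a score of 83.9. They did not overlap, and both lay inside the RBBP4 region of unmodified cells described above. Of the 3 RBBP4 control peaks near these genes 0 were overlapped by a knockdown peak, against 33.9% of all 3561 control peaks. That share differed by score: it was 69.4% of the 1080 control peaks with a score of at least 100. Of the 3 peaks only that of Klf4 had such a score. For MTA1 there were 0 control peaks to compare, with 16.1% of all 1703 overlapped. The control peaks at Egr3 (score 51.3) and Klf2 (65.3) stood near the lowest deposited score of 50 and near the list median of 67.1. The MTA1 knockdown peaks were 2108 bp wide at Klf4 (score 116.8, 436 to 2544 bp from the start) and 1837 bp wide at Myc (score 57.3, 995 to 2832 bp), in a list whose median width was 861.5 bp where the control list's was 150 bp. With 1 library per condition, unknown depth and lists that differ in this way, a peak present in 1 list and not in the other has no replicate check. Klf4 RNA was higher in all 3 knockdown clones, as given above. Myc RNA was above both controls in knockdown clones 2 and 3 and below them in clone 1 (log2 difference −0.25). Neither gene passed the test, and a link between these peaks and the RNA was not tested.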

How the data were processed

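The series holds 28 samples, grouped from their labels alone. Per the submitters' processing notes, TopHat, Cufflinks, Cuffdiff, Bowtie, bedtools and MACS2 were used with build mm9; the sources used here give no version or role of a tool, except MACS 2.1.1.20160309 for the sequential ChIP, per the file headers. The authors deposited FPKM per gene and clone. Entries of a symbol were summed. Deposited region levels are on a log2 scale, read as log2(RPKM + 1), from which whole reads were recovered for 100% of values within 0.05. The deposited coverage is a fraction of each region from 0 to 1. Deposited peak lists give a score per peak, used only within a list. The sequential list holds, as deposited by the authors, a pileup signal, p and q each as −log10, and a fold enrichment, which is a ratio. Inputs were not used here.

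Clones were compared with limma 3.58.1 (R 4.3.3), whose moderated two-sided test was fitted with a trend to log2(FPKM + 1). A mean FPKM of 1 was the minimum, the pseudocount of 1 understates changes of low genes, and the threshold was 0.05 on Benjamini-Hochberg adjusted p. The script was tested on simulated data. Peaks and regions were assigned within 2 kb of a locus with a 1 bp overlap, in Python 3.11.15 (pandas 2.3.3, numpy 2.4.6, scipy 1.17.1). Region intervals are exact Poisson 95% intervals. A region level of a gene pools the reads of its regions. Every region holds an H3.3 or subunit peak by construction. Strand of the RNA counting is not given in the sources used here, so overlapping transcripts cannot be separated. The members and lists were chosen with earlier results of these data known. All members are named, and from each list the 2 genes of highest mean FPKM and the 2 of smallest p. Loci and peaks are mm9 and promoters GRCm38.p6; no position was converted. Strand came from the RefSeq promoter table for 6 genes and otherwise from the authors' region annotation.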

Additional observations from a re-analysis of the deposited data

How the results depend on the processing

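The genes called, the members' log2 differences, the peak and region counts, the median region levels and the peaks found in both lists were recomputed under other settings, the expression values also with 1 clone left out (a lone control clone is then assumed to vary like the other group). The omission of short RNA genes and, for the gene lists, of knockdown clone 1 was chosen after seeing the data. Peak widths, sides of a locus, subunit numbers and motifs were not recomputed. Of 290 such values 255 kept their direction and side of the threshold or moved by less than the limit set for them, and 0 of the 10 genes was called in any fit. Genes called over the whole table numbered 4 as reported, 12 with array weights, 0 with the replicate block, 0 without short RNA genes (11364 tested, 1230 at an unadjusted p under 0.05), and from 5 to 36 with 1 clone left out: the omission of control clone 1 gave 36 and of control clone 2 gave 28, and that of knockdown clones 1, 2 and 3 gave 9, 13 and 5. Clone numbers only name the clones: the paired check gave correlations of deviations of −0.25 and −0.10 for numbers 1 and 2, and under the replicate block 504 genes had an unadjusted p under 0.05. Signs turned for Ier2 under quantile normalization (0.0687) and for Myc with array weights (0.0899). With 1 clone left out the log2 difference ran from −1.06 to 0.0830 for Egr3, from −0.12 to 0.47 for Klf6, from −0.36 to 0.20 for Ier2, from −0.61 to 0.0267 for Srf and from −0.45 to 0.14 for Myc, and kept its sign for Egr1, Egr2, Klf2, Klf4 and Nr4a1 (−2.14 to −1.29). The cause of these changes was not tested. With a score of at least 100, peak counts were 1 for MTA1 knockdown, 1 for RBBP4 control and 0 for RBBP4 knockdown. Counting regions inside the locus alone left 1 gene for MTA1 and 1 for CHD4, and a coverage of at least 0.5 left 0 for MTA1, 1 for CHD4, 0 for HDAC1 and 0 for MBD2/3. Low read numbers per region limit the subunit levels, and unknown depth limits the peak comparison.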
